A study of Bos taurus with 179 samples.

Results

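Oocytes 70–79 μm in diameter were compared with oocytes 80–99 μm in diameter by RNA-seq of single cells. The 70–79 μm group was taken from the columns that the labels place in group C, and the 80–99 μm group from groups D (80–89 μm) and E (90–99 μm), keeping the oocytes that the study lists as analysed. This gave 23 oocytes of 70–79 μm, 24 of 80–89 μm and 21 of 90–99 μm, which are 68 of the 165 analysed oocytes and of the 179 deposited. All were oocytes of Bos taurus, freed of their surrounding cells, from ovaries collected at an abattoir. The labels give no treatment that differs between groups, and all oocytes were isolated in a medium with heparin and cilostamide, a phosphodiesterase inhibitor. Breed, age and animal are not given in the sources used here, so oocytes of one group may share an animal. The libraries were made in 2 replicates, sequenced as single-end reads of 150 bp (replicate 1) and 75 bp (replicate 2), and each group held oocytes of both. A difference is given as 80–99 μm relative to 70–79 μm throughout, as the mean of the groups 80–89 and 90–99 μm.

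A growing oocyte is arrested in meiotic prophase and stores messenger RNA, proteins and organelles that it needs for maturation and for the first divisions of the embryo. In the size range compared, the follicle around it passes from a solid structure of granulosa cell layers to one with a small fluid-filled antrum. Mitochondria multiply in this phase, and their respiratory chain and ATP synthase are built from subunits encoded in the nucleus and in the mitochondrial genome. The oocyte itself secretes factors such as BMP15, a TGF-beta family ligand that acts on the granulosa cells.

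The counts of an oocyte summed to between 431855 and 7427594 at 70–79 μm (median 1839094), and to between 277126 and 5434763 at 80–99 μm (median 1618959). Genes with more than 1 count numbered 9212 to 12286 per oocyte (median 11415) at 70–79 μm and 8188 to 13012 (median 10633) at 80–99 μm. BMP15 and the oocyte transcripts BTG4, CPEB1 and BCAR4, the 4 oocyte markers that could be paired with a gene ID, had counts in every one of the 68 oocytes. The 6 granulosa markers paired summed to 29.5 to 172 CPM (counts scaled to a common library size) at 70–79 μm and to 33.3 to 110 CPM at 80–99 μm. Most of this was CD200, at a median of 79.5 and 77.0 CPM, while FSHR, the follicle-stimulating hormone receptor, was at 0 in 17 of 23 and in 32 of 45 oocytes. CYP11A1, a steroid-producing enzyme, was at 0 in 21 of 23 and in 44 of 45. The 5 theca and stroma markers paired summed to 1.44 to 53.4 CPM (median 21.6) at 70–79 μm. At 80–99 μm they summed to 0.566 to 48.6 CPM (median 16.3). COL1A1 was the only one of them with no count in any of the 68 oocytes, which allows up to 0.061 CPM over the 70–79 μm group. Of the endothelial markers, CLDN5 was at 0 in 18 of 23 and in 34 of 45 oocytes. Of the leukocyte markers, CD74 was at 0 in 18 of 23 and 35 of 45, and CSF1R was the one with a count in all 68, at a median of 104 and 87.2 CPM. No marker of any cell type that could be tested passed in either fit described next. The 4 granulosa markers tested in the sums all had negative log2 differences (median −0.78), as had both tested with single oocytes as units (median −0.35), and their part in the results was not tested. CPM is a share of an oocyte's transcripts, so a change in the RNA content of the whole oocyte was not measured.

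Expression was tested in 2 fits with the quasi-likelihood test of edgeR, both over all 8 size groups and with the library replicate as a block. In the first, the oocytes of a size group and replicate were summed, so that 6 sums carried this comparison. No gene of 14087 tested (0.0%) was called at a Benjamini-Hochberg adjusted p below 0.05. At an unadjusted p below 0.05 there were 778 genes, 290 higher and 488 lower. DESeq2 on the same sums called 18 genes (0.128%), 16 higher (0.114%) and 2 lower (0.0142%). In the second fit each oocyte was a unit of its own, which takes oocytes that may come from one animal as independent. With oocytes as units, 292 of 10993 genes tested (2.66%) were called, 167 higher (1.52%) and 125 lower (1.14%) at 80–99 μm. With normalization by relative log expression the split was 212 higher and 97 lower. The called genes changed by a median of 1.77-fold upward and 1.54-fold downward, and 51 and 24 of them by more than 1 on the log2 scale. In the fit of sums, which were added up from the same oocytes and so give no independent support, 77.1% of the 292 had an unadjusted p below 0.05 in the same direction. A gene is said below to have risen or fallen where it was called with oocytes as units. None of these genes passed in the edgeR fit of sums, where the adjusted p of the 51 with a symbol lay between 0.688 and 0.91.

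The genes named were the 12 with the smallest p in the fit of sums in each direction, among genes with a symbol that moved the same way in both replicates. Symbols could be paired with 16.8% of the gene IDs, and 80.1% of these symbols begin with A, B or C, so most called genes stay unnamed here. Of the 28 genes this rule chose, 4 of them without a symbol, 18 were called with oocytes as units. With ComBat-seq counts VSIG1, RSPO4, ELF3, BOLA-DMB, ADAM23 and CLYBL were no longer called, at adjusted p of 0.0607, 0.0911, 0.0622, 0.176, 0.0565 and 0.0635 by edgeR, and the other 12 were. The log2 differences of the 6 lost were, in that order, 1.53, 1.60, 1.52, −1.19, −1.02 and −0.58, beside 1.45, 1.65, 1.61, −1.45, −1.13 and −0.65 with the deposited counts.

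CASP1, the protease that activates interleukin 1 in inflammasomes, had the smallest p of the genes with a symbol. Summed over the oocytes of replicate 1 it stood at 29.7 CPM at 70–79 μm, 48.0 at 80–89 μm and 55.4 at 90–99 μm, and in replicate 2 at 35.4, 87.4 and 122 CPM. Among single oocytes it ranged from 7.40 to 46.0 CPM (median 32.3) at 70–79 μm and from 2.77 to 184 CPM (median 57.4) at 80–99 μm. The groups overlapped: all 23 oocytes of 70–79 μm lay below the median of the larger ones, while 32 of the 45 larger oocytes lay above the median of the smaller ones and 13 below it. The log2 difference was 1.14 (SE 0.263, adjusted p = 0.688 by edgeR) in the sums. CASP1 rose with oocytes as units by 1.02 (SE 0.241, adjusted p = 0.00853, edgeR). It was also called by DESeq2 on the sums (adjusted p = 0.0192).

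A gene of muscle, CMYA5, which encodes a large scaffold protein, had a similar overlap between the groups. Its sums were 72.3, 89.4 and 107 CPM from the smallest to the largest group in replicate 1, and 66.1, 116 and 172 CPM in replicate 2. Single oocytes ranged from 31.4 to 106 CPM (median 71.7) at 70–79 μm and from 44.8 to 243 CPM at 80–99 μm, and again every oocyte of 70–79 μm lay below the median of the larger ones, with 34 of the 45 larger oocytes above the median of the smaller ones and 11 below it. CMYA5 rose 1.65-fold with oocytes as units (adjusted p = 0.00589 by edgeR), against an adjusted p of 0.748 in the sums.

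CST6, the secreted cysteine protease inhibitor cystatin E/M, had sums of 24.5, 49.7 and 63.3 CPM in replicate 1 and of 24.1, 30.2 and 68.4 CPM in replicate 2. Its oocytes of 70–79 μm ranged from 3.37 to 87.5 CPM (median 19.8), and the larger ones started at 0.693 CPM and had a median of 39.5 CPM. The groups overlapped widely, with 35 of the 45 larger oocytes above the median of the smaller ones. It rose 2.24-fold with oocytes as units (adjusted p = 0.0155, edgeR). CTSC, a lysosomal protease of the class that cystatins inhibit, stands outside the rule and was named after its values were seen. It rose 1.72-fold from a median of 30.3 CPM (highest 67.4) at 70–79 μm, and reached 115 CPM at 80–99 μm (adjusted p = 0.0146 with oocytes as units, edgeR).

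A transcription factor and proteins of the cell surface or secreted, all at low levels, followed among the genes higher at 80–99 μm. ELF3, an ETS factor known from epithelia, had a median of 5.57 CPM at 70–79 μm and 20.9 CPM at 80–99 μm and rose 3.06-fold with oocytes as units (adjusted p = 0.0224, edgeR, against 0.768 in the sums). VSIG1, an immunoglobulin-domain membrane protein, rose from a median of 3.99 to 8.26 CPM, with an adjusted p of 0.0419 in the same fit and of 0.0192 by DESeq2 on the sums. MMP25, a matrix metalloproteinase anchored in the cell membrane, rose from a median of 0.571 to 2.70 CPM, and RSPO4, a secreted enhancer of Wnt signalling, from 1.68 to 4.85 CPM (adjusted p = 0.00815 and 0.0207 by edgeR with oocytes as units). These 4 genes were at 0 in some oocytes of both groups, 7 of 23 and 7 of 45 in the case of MMP25. ATP5ME, subunit e of ATP synthase, is described with its complex.

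Other genes higher in the sums did not pass with oocytes as units or were too sparse for that fit. ANKRD37, an ankyrin repeat protein, had medians of 1.63 and 6.06 CPM (adjusted p = 0.0670), and CCDC196 2.71 and 4.16 CPM (adjusted p = 0.111, edgeR with oocytes as units). IL23R, a subunit of the interleukin 23 receptor, was at 0 in all 23 oocytes of 70–79 μm and had 56 counts in 10 of the 45 oocytes of 80–99 μm. Against a floor of 3 counts over the whole 70–79 μm group this was at least 10.5-fold higher, a bound that covers counting error alone. IL23R was too sparse for the fit of single oocytes on the deposited counts. Its median was 0 CPM in both groups. It was kept and called with ComBat-seq counts, which are adjusted for the replicate. A gene at 0 in one group is kept through the other groups alone, so nothing is read from that call. The same holds for its p in the sums, which placed it among the named genes, and for the fold bound.

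**Figure D1:**
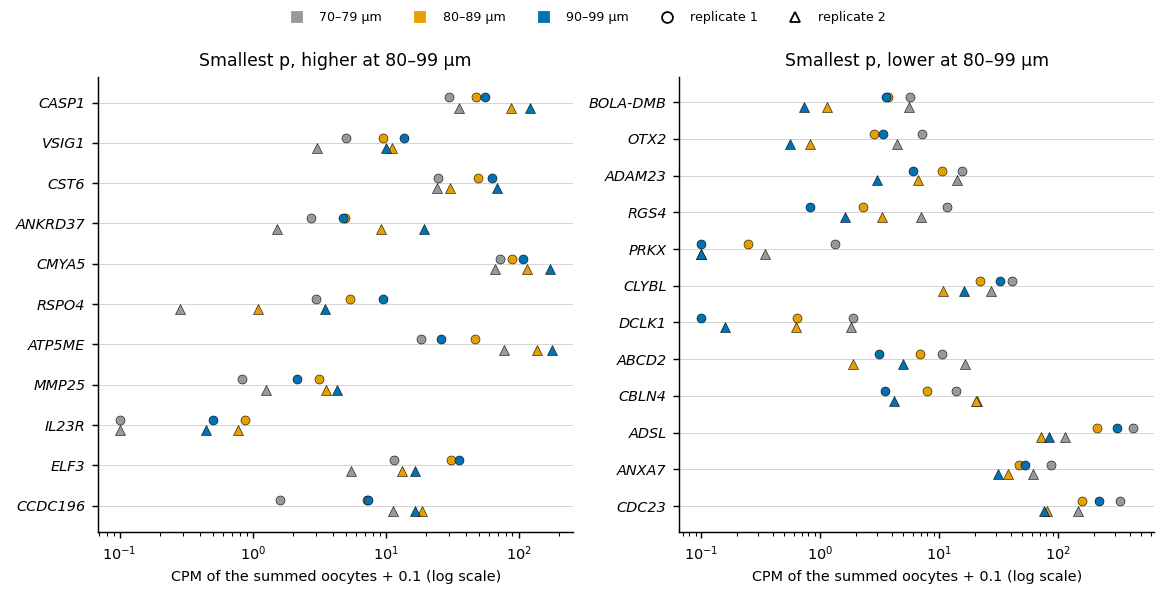
Expression (CPM plus 0.1, log scale) of 23 named genes with a symbol in the 6 sums of oocytes, by size group (colour) and library replicate (circle 1, triangle 2), with the genes higher at 80–99 μm on the left and the lower ones on the right. In each replicate the sums of 80–89 and 90–99 μm lie on the same side of the grey 70–79 μm sum, as in CASP1, where 48.0 and 55.4 CPM stand above 29.7 CPM in replicate 1.

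Both larger sums lay above the 70–79 μm sum in both replicates for 1529 of the 14087 genes tested (10.9%) and below it for 2121 (15.1%). The 28 named genes were all among them, in the direction by which they had been picked.

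Among the genes lower at 80–99 μm, ANXA7, a calcium-dependent phospholipid-binding annexin, had the smallest adjusted p with oocytes as units of those the rule chose with a symbol. It ranged from 37.0 to 168 CPM (median 71.4) at 70–79 μm and from 14.9 to 95.4 CPM (median 45.9) at 80–99 μm, and 41 of the 45 larger oocytes lay below the median of the smaller ones. Its sums were 87.4, 46.8 and 52.7 CPM in replicate 1 and 61.7, 37.6 and 31.4 CPM in replicate 2. The log2 difference was −0.82 (SE 0.279, adjusted p = 0.789, edgeR) in the sums. ANXA7 fell by 0.65 on the log2 scale with oocytes as units (SE 0.141, adjusted p = 0.00399 by edgeR).

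CBLN4 and ADAM23 are known from neurons, the first as a secreted cerebellin and the second as a membrane protein of the ADAM family without protease activity. CBLN4 had sums of 13.8, 7.88 and 3.43 CPM in replicate 1 and of 20.6, 20.2 and 4.12 CPM in replicate 2, so that in replicate 2 the 80–89 μm sum stood beside that of 70–79 μm. In single oocytes it fell from a median of 13.1 to 5.24 CPM (2.54-fold, adjusted p = 0.00886 with oocytes as units, edgeR). It had counts in all 23 oocytes of 70–79 μm and was at 0 in 7 of the 45 larger ones. ADAM23 had sums of 15.4, 10.5 and 5.90 CPM in replicate 1 and of 14.2, 6.54 and 2.90 CPM in replicate 2. It fell 2.19-fold with oocytes as units (adjusted p = 0.0168, edgeR), and 38 of 45 larger oocytes lay below the median of the smaller ones.

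**Figure D2:**
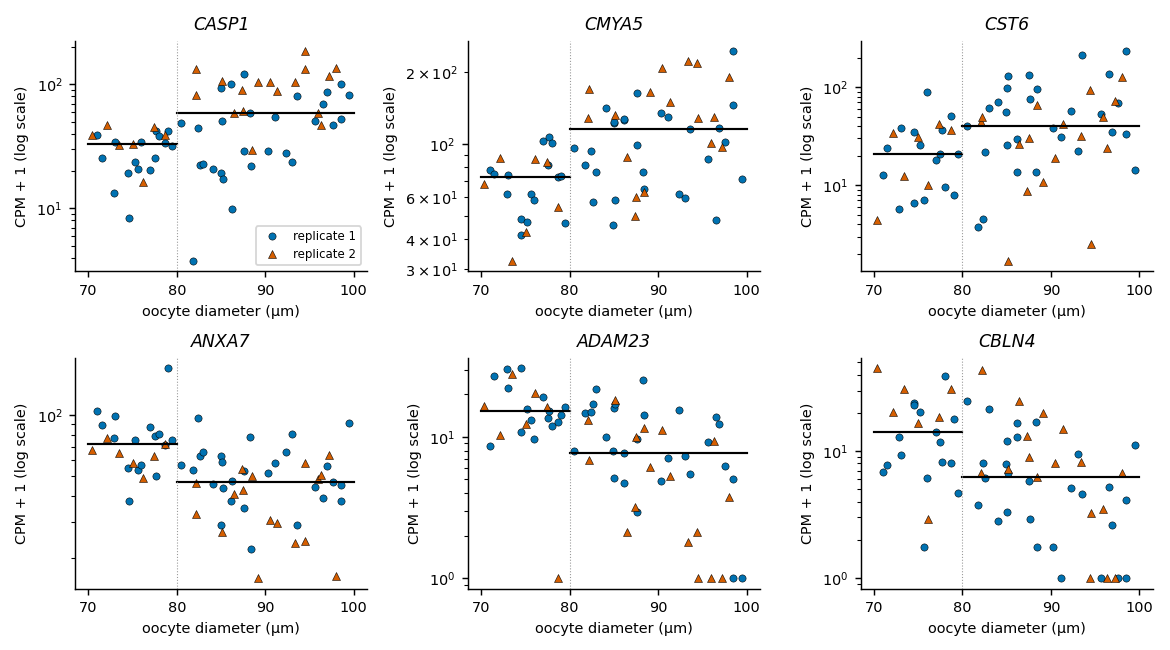
CPM plus 1 (log scale) against oocyte diameter (μm) in the 68 oocytes for 3 genes that rose and 3 that fell with oocytes as units, with circles for replicate 1, triangles for replicate 2 and a bar at the median of 70–79 and of 80–99 μm. The median of CASP1 goes from 32.3 to 57.4 CPM and that of ANXA7 from 71.4 to 45.9 CPM, with single oocytes of both groups overlapping in every panel.

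CDC23, a subunit of the anaphase promoting complex, fell from a median of 255 to 153 CPM (1.58-fold, adjusted p = 0.0146 with oocytes as units and 0.793 in the sums, edgeR). At 250000 counts per oocyte its adjusted p was 0.0867 and its log2 difference −0.53, beside −0.66 with all counts. CLYBL, a mitochondrial lyase of citramalyl-CoA, fell from 33.1 to 24.2 CPM (adjusted p = 0.0240), and BOLA-DMB, a chain of the bovine class II antigen-loading molecule DM, from 5.14 to 1.21 CPM (adjusted p = 0.0345). BOLA-DMB was at 0 in 2 of 23 and 17 of 45 oocytes, and the class II invariant chain CD74 was at a median of 0 CPM in both groups.

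The other 6 lower genes of the sums were not called with oocytes as units. ABCD2, a peroxisomal transporter of fatty acyl-CoA, had medians of 12.3 and 2.72 CPM (adjusted p = 0.176, edgeR), OTX2, a homeodomain transcription factor, 2.83 and 1.24 CPM (adjusted p = 0.0910), and ADSL, an enzyme of purine synthesis, had a log2 difference of −0.44 (adjusted p = 0.116). RGS4, a regulator of G protein signalling, was at 0 in 11 of 23 and 31 of 45 oocytes, and had an adjusted p of 0.0943 in that fit. The kinases PRKX and DCLK1 were too sparse to be kept. PRKX had 45 counts in 7 of 23 oocytes and 6 counts in 3 of 45, and DCLK1 87 counts in 13 and 33 counts in 10 oocytes.

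Without a symbol, ENSBTAG00000027841 and ENSBTAG00000002953 had the smallest p of the higher genes that moved the same way in both replicates, and ENSBTAG00000010444 and ENSBTAG00000049688 of the lower ones. Their log2 differences in the sums were 2.35, 1.65, −3.46 and −2.58. All 4 were called with oocytes as units and by DESeq2. The first was at a median of 2.27 CPM at 70–79 μm and 6.47 CPM at 80–99 μm, and the third at 1.82 and 0 CPM.

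Gene lists by pathway were then counted. They held 584 genes that could be paired, and with oocytes as units 10 were called higher and 9 lower, which are 1.76% and 1.58% of those tested and near the background of 1.52% and 1.14% of all genes. Without the list of genes that the study chose on these samples there were 9 and 8. In the sums none was called. The members given by name for each list were chosen after their values were seen, and those called with oocytes as units are all among them.

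Cytochrome c oxidase and ATP synthase held 5 of the 10 higher genes. Of the 28 members tested for cytochrome c oxidase, the last complex of the chain, and for its assembly, 4 rose and none fell. COX6C rose from a median of 255 to 510 CPM (1.92-fold, adjusted p = 0.0153), COX7A2 from 53.1 to 77.8 CPM (adjusted p = 0.0177) and COX5A 1.41-fold to 165 CPM (adjusted p = 0.0350, all by edgeR with oocytes as units). The assembly factor CMC2 rose from 13.9 to 24.9 CPM. In the sums the log2 differences of these 4 genes were 1.01, 0.82, 0.50 and 0.89, in the order given. In replicate 1 alone no member of the list was called, and in replicate 2 alone the assembly factor COA8 was called, as lower. With ComBat-seq counts 3 of the 4 stayed called, and COX5A had an adjusted p of 0.0542 (edgeR). A positive log2 difference was found in 19 members and a negative one in 9, and the median was 0.26, beside −0.02 over all genes tested. COX1 and COX2, encoded in the mitochondrial genome, were at 0.27 and 0.14 and were not called. In the sums the median of the list was 0.24 and that of all genes −0.06.

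Of the 19 ATP synthase genes tested, ATP5ME alone was called. Its sums were 18.4, 47.2 and 26.2 CPM in replicate 1 and 77.9, 137 and 177 CPM in replicate 2, which shows a larger gap between the replicates than between the sizes. Single oocytes of 70–79 μm ranged from 1.85 to 153 CPM (median 22.7), and the larger ones had a lowest value of 5.54 and a median of 48.0 CPM. ATP5ME rose 1.90-fold with oocytes as units (adjusted p = 0.0181, edgeR). In the same fit 14 of the 19 log2 differences were positive, with 0.80 for the epsilon subunit ATP5F1E (adjusted p = 0.0518) and 0.51 for the stalk subunit ATP5PD (adjusted p = 0.0762, edgeR). ATP5F1A and ATP5F1B, which form the catalytic head, were at −0.42 (adjusted p = 0.0522) and −0.25. The median of the list was 0.24. Summed over the list, an oocyte held 4877.0 to 11314.7 CPM at 70–79 μm (median 7095.6) and 4907.2 to 20613.6 CPM at 80–99 μm (median 7522.4), so most of the summed levels overlapped.

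**Figure D3:**
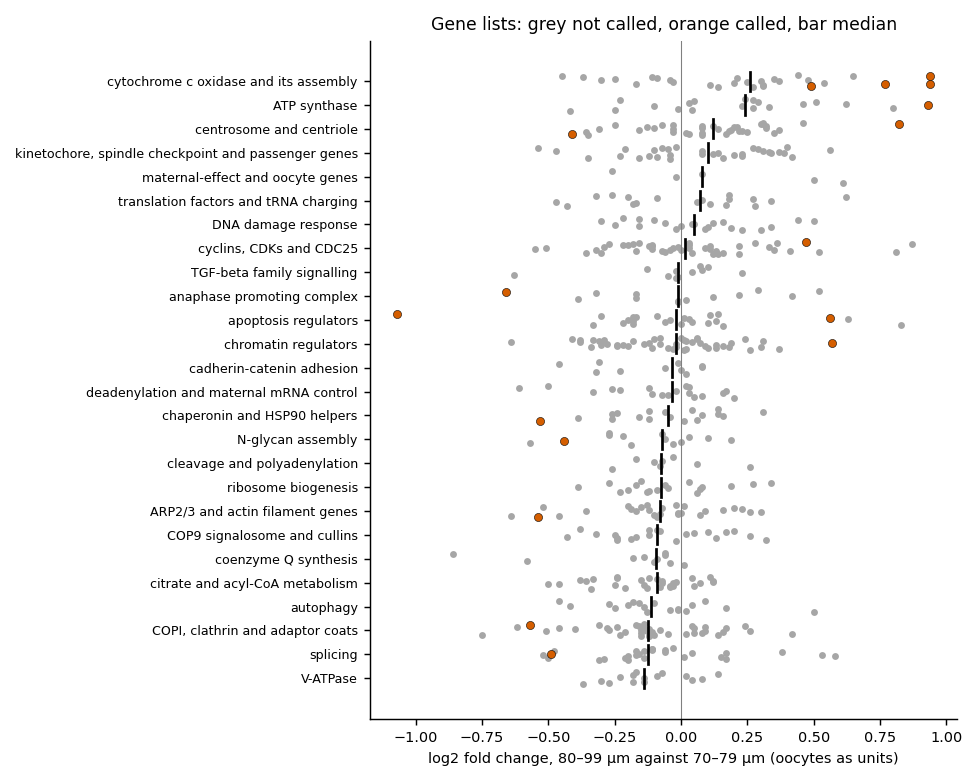
Log2 fold change of each tested member of the gene lists with at least 5 members tested (oocytes as units, 80–99 μm against 70–79 μm), with called members in orange, the others in grey and a bar at the list's median. The lists for cytochrome c oxidase and ATP synthase have the highest medians, 0.26 and 0.24, and 5 of the orange points.

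Cell cycle and centrosome genes had single members called on either side. CETN3, a centrin of the centriole, rose from a median of 302 to 518 CPM (1.76-fold, adjusted p = 0.0227, edgeR with oocytes as units), and 42 of the 45 larger oocytes lay above the median of the smaller ones. CEP43, a protein of the centriole, fell from 200 to 170 CPM (adjusted p = 0.0224), and both were among 37 members tested. CKS2, a small subunit of cyclin-dependent kinases, rose 1.38-fold to 503 CPM (adjusted p = 0.0281) as 1 of 44 genes tested for cyclins, their kinases and CDC25 phosphatases. CDC23 was the only one called of 13 anaphase promoting complex genes tested. None of 32 kinetochore, spindle checkpoint and passenger genes was called, with a median of 0.10.

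Genes of protein folding, glycosylation, vesicle coats, splicing and actin each had 1 member lower. CCT3, a subunit of the cytosolic chaperonin, fell from a median of 1249.3 to 938 CPM (adjusted p = 0.0184, edgeR with oocytes as units). ACTG1, cytoplasmic gamma actin, fell from 1248.2 to 948 CPM (adjusted p = 0.0130), with 41 of 45 larger oocytes below the median of the smaller ones. CRNKL1, a spliceosome protein, fell from 274 to 178 CPM (adjusted p = 0.0129), ALG9, a mannosyltransferase of N-glycan assembly, from 80.3 to 57.8 CPM (adjusted p = 0.0295), and ARFGAP3, which acts on the coat GTPase ARF1, from 75.9 to 51.1 CPM (adjusted p = 0.0441). Their lists held 18, 27, 28, 13 and 40 tested members, with medians of −0.05, −0.08, −0.13, −0.07 and −0.13. CCT3 and ARFGAP3 were no longer called with ComBat-seq counts.

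For apoptosis, 24 members were tested. BNIP2, named for its binding to BCL2, rose from a median of 228 to 325 CPM (adjusted p = 0.0198), and CASP9, the initiator caspase of the mitochondrial death pathway, fell from 13.9 to 7.95 CPM (adjusted p = 0.0402, edgeR with oocytes as units). CASP9 was no longer called with ComBat-seq counts, and it did not reach an unadjusted p below 0.05 in each replicate. CASP6, an effector caspase, was at a log2 difference of 0.11 and was not called. Among 47 chromatin regulators BRPF3, a scaffold of histone acetyltransferases, was called, from 56.3 to 77.6 CPM (adjusted p = 0.0324). The 5 maternal-effect and oocyte genes tested had a median of 0.08 and none was called. BCAR4 had the smallest adjusted p of the oocyte markers, at 0.0652, with a log2 difference of 0.50, and BMP15 was at 1225.1 and 1109.5 CPM. The lists for translation, ribosome biogenesis, polyadenylation, deadenylation, autophagy, citrate and acyl-CoA metabolism, coenzyme Q, V-ATPase, COP9 signalosome and cullins, DNA damage, adhesion and TGF-beta signalling had no called member, and no ribosomal protein gene could be paired. CTSC and CBLN4, given above, were the 2 paired members of a list of genes that the study chose on these samples, so their calls are no independent evidence.

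The sizes outside the comparison were used to follow the called genes over growth, since none of those oocytes is part of the difference itself. They did enter the fits, and so shared the dispersion, the filter and the replicate term with it. With oocytes as units, the mean of the 3 groups from 100 μm upward was set against the mean of the 2 groups below 70 μm. Of the 167 genes that rose at 80–99 μm, 127 (76.0%) were called higher and 7 (4.19%) lower from 100 μm upward, where 25.6% of all genes tested were higher. Of the 125 that fell, 113 (90.4%) were lower and none higher, where 30.7% of all genes were lower. No test of these shares was made, and how the spread of a gene between oocytes bears on them was not tested.

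CASP1 had a median of 24.9 CPM in oocytes < 60 μm and 16.5 CPM at 60–69 μm, and of 72.3 CPM at 100–109 μm and 239 CPM at 110–119 μm. ELF3 and GATA3, the latter a zinc finger transcription factor named after its values were seen, had medians of 0 CPM below 60 μm. From 100 μm upward the medians of ELF3 in the 3 groups were 57.4, 25.5 and 24.9 CPM, and those of GATA3 17.7, 15.9 and 16.7 CPM. CBLN4 had a median of 45.5 CPM below 60 μm and of 0.625, 3.25 and 2.17 CPM in the groups from 100 μm upward, and ADAM23 of 14.8 CPM and of 3.97, 3.02 and 1.07 CPM. Of the 30 genes with a symbol that rose, 4 were not called over this wider range, and 3 of them were COX6C, COX7A2 and ATP5ME. In the 4 smallest size groups, in order, COX6C had medians of 994, 745, 255 and 532 CPM and ATP5ME of 86.3, 49.6, 22.7 and 63.2 CPM, so that both were lowest at 70–79 μm among these 4 groups. Of the 21 genes with a symbol that fell, CLYBL, CEP43 and the proteoglycan gene SRGN were not called over the wider range.

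**Figure D4:**
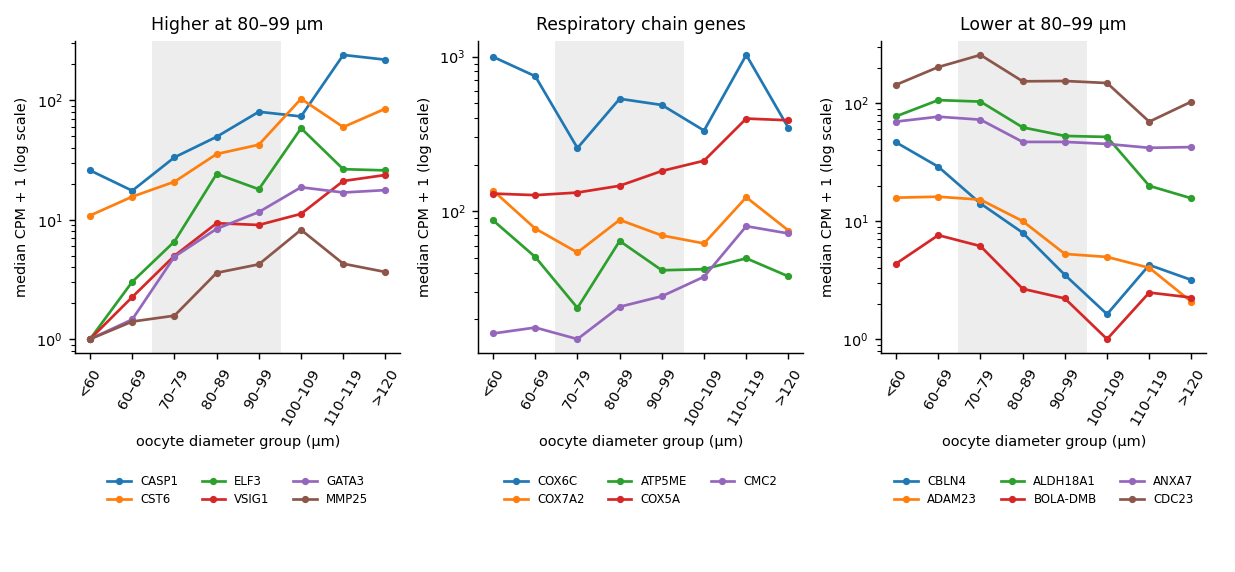
Median CPM plus 1 over the oocytes of each size group (log scale) for genes that rose (left and middle) or fell (right) at 80–99 μm with oocytes as units, with the groups compared shaded. CASP1 goes from 24.9 CPM below 60 μm to 239 CPM at 110–119 μm, while COX6C falls from 994 to 255 CPM at 70–79 μm and stands at 532 CPM at 80–89 μm.

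Between 80–89 and 90–99 μm, none of the 28 named genes was called in the sums or, where tested, with oocytes as units. Taken alone against 70–79 μm with oocytes as units, 80–89 μm gave 86 higher and 26 lower genes and 90–99 μm 171 and 126. COX6C was called at 80–89 μm (log2 difference 1.26, adjusted p = 0.00462) and was at 0.63 with an adjusted p of 0.213 at 90–99 μm. CASP1 was at 0.81 (adjusted p = 0.121) and 1.23 (adjusted p = 0.00372), and CBLN4 at −0.51 (adjusted p = 0.647) and −2.18 (adjusted p = 0.000628, all by edgeR). The difference between 80–89 and 90–99 μm had an adjusted p of 0.554 for COX6C, 0.743 for CASP1 and 0.159 for CBLN4, so none of these 3 was shown to differ between them.

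The replicates held different oocytes and allowed a check of the calls. With oocytes as units, replicate 1 alone gave 70 higher and 40 lower genes (0.601% and 0.343%, together 0.944% of 11655) and replicate 2 alone 12 and 11 (0.106% and 0.0973%, together 0.203% of 11305). Of the 105 genes called in replicate 1 that could be tested in replicate 2, 77 (73.3%) had the same direction there, compared with 50.6% of all genes tested in both. The median size of the log2 difference of the genes called in replicate 1 was 1.08 there. In replicate 2 their median was 0.40, counted as positive where the direction was kept. Of the 21 genes called in replicate 2 that could be tested in replicate 1, 17 (81.0%) had the same direction, and 6 (28.6%) also an unadjusted p below 0.05. For the genes called in replicate 2 the medians, taken in the same way, were 1.40 there and 0.30 in replicate 1. Only 2 genes were called in both replicates. The genes called higher kept their direction in 55 of 65 and those called lower in 22 of 40. An unadjusted p below 0.05 in the same direction was found in replicate 2 for 25 of the 105 (23.8%) and in the opposite direction for 3, compared with 8.53% of all genes in the same direction. It was found for 20 of the 65 higher genes (30.8%) and for 5 of the 40 lower ones (12.5%). The 51 genes with a symbol had been called on the oocytes of both replicates, so their values in each replicate describe the calls and do not test them. Of these, 28 had an unadjusted p below 0.05 in each replicate, CASP1, CMYA5, ANXA7, CDC23, COX6C and CETN3 included. CST6, CTSC, MMP25 and ATP5ME reached it in replicate 1 and not in replicate 2, where their log2 differences were 0.74, 0.50, 1.27 and 0.78. Replicates differed in read length and in the number of oocytes, 16 and 7 at 70–79 μm and 28 and 17 at 80–99 μm, and the part of either in these counts was not tested.

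**Figure D5:**
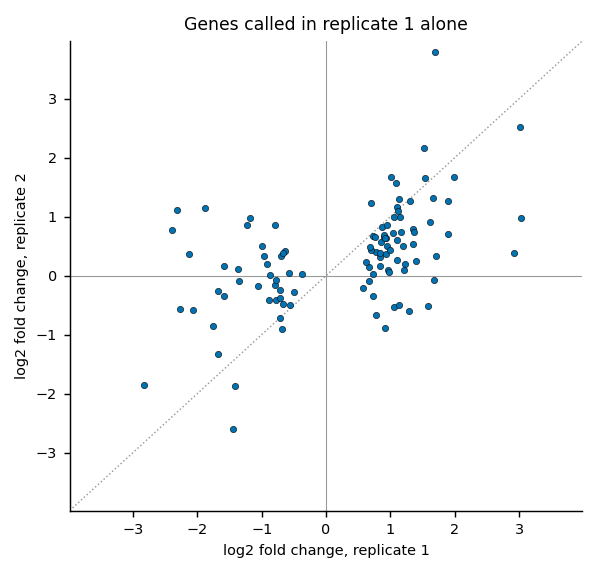
Log2 fold change of 80–99 μm against 70–79 μm in replicate 2 (vertical axis) against replicate 1 (horizontal axis) for the 105 genes called in replicate 1 alone with oocytes as units, with a dotted line of equal values. The points in the upper right hold 55 of the 65 higher genes, while those of the 40 lower genes are spread over both sides of 0 in replicate 2.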

How the data were processed

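Polyadenylated RNA of single oocytes was captured with Smart-seq2 oligo-dT beads, amplified and made into Nextera XT libraries. The authors trimmed reads with Trim Galore 0.6.6, mapped them to ARS-UCD1.2 (bosTau 9) with HISAT2 and quantified them in SeqMonk, and deposited raw counts per gene, with no normalization. The file holds 23161 lines for 21218 gene IDs, and lines of one ID were summed. The counts were then added up within each combination of size group and library replicate (16 sums) and fitted with edgeR 4.0.16 in R 4.3.3, with TMM normalization, filterByExpr (minimum count 10, total 15) and a term for the replicate, at a Benjamini-Hochberg adjusted p below 0.05. The study's own unit was the single oocyte, which was fitted in the same way. A DESeq2 1.42.0 fit of the sums and ComBat-seq counts (sva 3.50.0) were alternatives. CPM was computed on TMM-scaled library sizes, and SE as the size of the log2 difference over the square root of F. The replicate was blocked because same-numbered sums deviated from their group means together (correlations of 0.398 to 0.694 over 28 pairs). No 2 oocytes had identical counts.

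Symbols came from supplementary tables of the study that pair them with gene IDs, and the 3569 used once were kept. Named were the 12 genes with a symbol and the 2 IDs without one that had the smallest p in each direction and the same sign in both replicates, up to 4 members of any of the 28 lists with a called member in the sums (there was none), and the 8 genes that the study names for this comparison, none of which could be paired. Members, lists and tests were chosen with earlier results of these data known. P-values from sums rest on 7 residual degrees of freedom, and those from oocytes on oocytes as independent units. Both also rest on a spread that edgeR shares between genes. The fits were run on simulated data first. Those counts were drawn independently for each unit, so they cannot test whether oocytes are independent. Intervals and floors cover counting error only. No sequences or positions of genes were used here, and some genes that the rule or the lists hold are not reported here.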

Additional observations from a re-analysis of the deposited data

Results flagged for a closer look

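Within the groups of 7 to 9 oocytes of replicate 2, a single oocyte stood far from the others in 18 of 84 sets of values, where chance gives about 1 in 20 for normally distributed values. The rate for genes at or near 0 in most oocytes, which many of these are, was not computed. At 70–79 μm the lowest oocyte had 15.3 CPM of CASP1 (the next 31.4), 0.0 CPM of ADAM23 (the next 9.28) and 1.92 CPM of CBLN4 (the next 15.6). The highest oocyte there had 1.11 CPM of RSPO4, 3.34 CPM of ENSBTAG00000027841 and 0.921 CPM of PRKX. At 80–89 μm the highest oocyte had 4.41 CPM of IL23R, 4.04 CPM of BOLA-DMB, 2.02 CPM of DCLK1, 5.63 CPM of ENSBTAG00000010444 and 8.39 CPM of ENSBTAG00000049688. At 90–99 μm the lowest had 1.49 CPM of CST6 and 0.0 CPM of CCDC196 (the next 6.62). The highest at 90–99 μm had 2.34 CPM of IL23R, 10.9 CPM of RGS4, 0.642 CPM of DCLK1, 1.56 CPM of ENSBTAG00000010444 and 11.6 CPM of ENSBTAG00000049688. The groups of replicate 1 hold more than 10 oocytes and were not screened.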

How the results depend on the processing

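Of the 26 other edgeR fits of the sums, 23 called no gene, as in the fit reported. Without the replicate block 0 genes were called and 100 had an unadjusted p below 0.05, where the blocked fit had 778. Fitting the 3 size groups compared alone called 1 gene, 250000 counts per oocyte called 2 (ELF3 and ENSBTAG00000027841), and leaving out one sum at a time gave 0 to 1 genes, the 1 being ENSBTAG00000027841 without the < 60 μm sum of replicate 1. DESeq2 called 18. Oocytes as units gave 292 genes, and ComBat-seq counts 211, of which 205 were shared. Of the 51 genes with a symbol 35 stayed called with ComBat-seq counts, and COX5A, CCT3, ARFGAP3 and CASP9 were among those that did not. Not all of the 292 genes could be tested at 250000 counts each. Of the 42 called genes with a symbol that were tested there, 25 stayed called. Among the named genes, CLYBL and CDC23 lost their call (adjusted p = 0.155 and 0.0867, edgeR), with log2 differences of −0.61 and −0.53. VSIG1, RSPO4, MMP25, BOLA-DMB, ADAM23, ENSBTAG00000010444 and ENSBTAG00000049688 had no test in that fit. Their calls were therefore not checked at equal depth. Chosen after seeing the data, fits with oocytes as units gave 110 genes in replicate 1 alone, 23 in replicate 2 alone, 163 at 250000 counts each and 309 with RLE normalization, of which the first 3 had 63, 12 and 137 among the 292. The group of 80–89 μm alone gave 86 higher and 26 lower genes and that of 90–99 μm alone 171 and 126, with 91 and 173 among the 292. List members called were 0 in every fit of the sums and with DESeq2, 19 with oocytes as units and 15 with ComBat-seq counts, and in the added fits, in the same order, 3, 1, 10, 20, 8 and 16. The cause of these moves was not tested. The named genes kept their sign in the 939 refits, which their choice by sign in both replicates largely fixed, whereas 3 of the 292 had the opposite sign in replicate 2 alone. In 89 of the refits a named gene passed the threshold that it missed in the sums. Median levels moved by less than the spread between oocytes with raw library sizes in all cases. PRKX and DCLK1 were too sparse for every fit of single oocytes, and IL23R for all but that with ComBat-seq counts.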

Other observations

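Other genes with a symbol that were called with oocytes as units, named after their values were seen, were enzymes, signalling molecules and adhesion genes. AKR1A1, an aldehyde reductase, rose from a median of 46.3 to 67.4 CPM (adjusted p = 0.0210 by edgeR), and ABAT, which breaks down the transmitter GABA, from 24.2 to 42.6 CPM (adjusted p = 0.0166), with 39 of the 45 larger oocytes above the median of the smaller ones. CCL25, a chemokine, rose from 15.9 to 22.0 CPM (adjusted p = 0.0416). The log2 difference of AKR1A1 was 1.23 in replicate 1 and 0.20 in replicate 2, and that of CCL25 was 1.39 and 0.25. ALDH18A1, an enzyme of proline synthesis, fell from 102 to 56.5 CPM (adjusted p = 0.00787), with an unadjusted p below 0.05 in both replicates. CDH7, a cadherin, fell from 69.9 to 44.4 CPM (adjusted p = 0.0145), by 0.78 on the log2 scale in replicate 1 and with a difference of −0.08 in replicate 2. SRGN, which encodes a proteoglycan of secretory granules, was called lower although its median was 0.479 CPM at 70–79 μm and 0.743 CPM at 80–99 μm. Its highest oocyte at 70–79 μm had 64.8 CPM, and its log2 difference was −2.40 in replicate 1 and 0.77 in replicate 2.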
